A study of Mus musculus with 2 samples.

Results

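Ribosome biogenesis factors are the nucleolar proteins that transcribe ribosomal RNA, modify it and assemble it with ribosomal proteins into ribosomal subunits. A list of 46 such genes was looked up by gene symbol among the named genes of a whole-transcript array, and 42 of the 46 were found among 19505 named genes. Nop56, Npm3, Gnl3 and Ebna1bp2 had no named probe set in the annotation used and were not analysed here. The cells were macrophages grown from mouse bone marrow in medium with 10% serum, with M-CSF, the macrophage growth factor, given on day 0 and again on day 3 (25 ng/mL each time), and used from day 5. There were 2 groups with 1 array each: the genotype LysM (+);MC4RTB/TB, called LysM(+) here, and the genotype MC4RTB/TB, called TB/TB here, so both groups carry the same pair of Mc4r alleles and differ by the LysM (+) label. As background, TB is known as a transcription-blocked Mc4r allele that Cre can unblock, and a LysM (Lyz2) driver places Cre in the myeloid lineage, neutrophils included; the labels spell out neither. The labels give no age or sex of the mice and do not say whether marrow was pooled.

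Making ribosomes starts in the nucleolus, where RNA polymerase I copies the ribosomal DNA into one long precursor. Small nucleolar ribonucleoproteins (snoRNPs) guide methylation (box C/D) and pseudouridine formation (box H/ACA) on it, a large assembly called the small subunit processome cuts and folds the part for the small subunit, and separate factors build the large subunit. The pathway is among the costliest of a growing cell, many of its genes are known targets of the transcription factor MYC, and M-CSF is a mitogen for macrophages and their precursors.

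Values are log2 expression values that the authors made by RMA, and every difference is the LysM(+) value less the TB/TB value, in log2 units. Replicates are lacking, since each group has 1 array, so nothing here could be tested and each difference describes these 2 arrays. A gene was counted as higher or lower if the gap was 1.5-fold or more and the brighter of its values was at or above 6.12, which is the median level of named probe sets and is called the floor. The background control probe sets, which match no transcript, lay between 3.09 and 6.81. Of the 42 measured factors, 41 reached the floor on both arrays, and Rrp12 was under it on both.

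Sequences around the starts of these genes were searched for the E-box CACGTG, a site bound by MYC with its partner MAX. This motif was chosen because the Myc gene itself differed between the arrays. RefSeq promoter windows of GRCm38.p6, reaching 250 bases before to 50 bases after the gene start, were matched for 41 of the 46 genes and comprised 45 windows; Bop1, Fbl, Npm1, Rrp12 and Rrs1 had no entry. An E-box was found in 10 genes, once in each. The motif reads the same on both strands. The 10 sites follow, 5′ to 3′ on the gene's strand, with the E-box in capitals and up to 12 bases on either side, ending at the window's edge.
Pno1, chr11:17211540-17211564, minus strand: tgtacaaccacgCACGTGttcctct
Ltv1, chr10:13193092-13193121, minus strand: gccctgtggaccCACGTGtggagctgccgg
Tsr1, chr11:74898092-74898121, plus strand: tcacttggtgcaCACGTGgactgcagaatg
Pes1, chr11:3963965-3963994, plus strand: ccctaggcagggCACGTGcgggaggaagta
Mybbp1a, chr11:72441355-72441376, plus strand: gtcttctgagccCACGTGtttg
Nop2, chr6:125131811-125131840, plus strand: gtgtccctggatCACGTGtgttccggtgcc
Wdr43, chr17:71616220-71616249, plus strand: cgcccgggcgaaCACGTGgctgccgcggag
Imp4, chr1:34439696-34439725, plus strand: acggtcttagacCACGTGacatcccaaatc
Utp20, chr10:88826765-88826789, minus strand: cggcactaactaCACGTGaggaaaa
Utp18, chr11:93885769-93885798, minus strand: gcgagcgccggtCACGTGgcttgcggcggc

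The first base of the E-box lay after the gene start in 7 genes and before it in the other 3. It was at position 3 in Pes1, 18 in Wdr43, 25 in Tsr1, 29 in Ltv1, 38 in both Pno1 and Utp20 and 41 in Mybbp1a, counting the start base as 1. In Utp18, Nop2 and Imp4 it lay 20, 60 and 121 bases before the start. The E-box was present in 22.2% of the 45 windows of these genes, in 7.15% of all 32851 RefSeq windows and in 9.99% of the 10513 windows of genes that reached the floor. Another 6 motifs were searched on both strands. The ETS-type motif CCGGAAG was in 33.3% of the windows of these genes, against 8.86% of all windows and 18.1% of those of genes reaching the floor. The variant E-box CACGCG was in 31.1%, against 9.27% of all windows and 16.6% of those of genes reaching the floor. The TATA box TATAAA was in 6.67% of the factors' windows, against 7.89% of those of genes reaching the floor. The motif CCAAT was in 35.6% and 37.8% of the same windows, the NRF1 palindrome in 2.22% of both, and the palindrome associated with ZBTB33 in 0% and 1.10%. A match of letters is not a bound site, and no binding was measured.

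Nop2 and Utp18 were the genes with both an E-box and a CCGGAAG motif before the start, and are shown in full because their values differed in direction, as given further on. Each sequence is the 250 bases before the start, 5′ to 3′ on the gene's strand, in GRCm38.p6, with both motifs in capitals.
Nop2, chr6:125131633-125131882, plus strand: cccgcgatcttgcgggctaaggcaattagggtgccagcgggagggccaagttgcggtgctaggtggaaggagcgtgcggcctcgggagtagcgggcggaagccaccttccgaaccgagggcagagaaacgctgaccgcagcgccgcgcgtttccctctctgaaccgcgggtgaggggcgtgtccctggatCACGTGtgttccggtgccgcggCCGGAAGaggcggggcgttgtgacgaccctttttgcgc
Utp18, chr11:93885767-93886016, minus strand: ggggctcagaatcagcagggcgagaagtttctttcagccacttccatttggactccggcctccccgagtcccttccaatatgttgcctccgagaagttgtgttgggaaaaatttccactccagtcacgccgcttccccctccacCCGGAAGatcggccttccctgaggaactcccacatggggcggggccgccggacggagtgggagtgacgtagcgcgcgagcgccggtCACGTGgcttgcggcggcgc

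Most ribosome biogenesis factors had a slightly higher value on the LysM(+) array. Of the 42 measured, 31 were higher by any amount and 11 lower, with a median difference of 0.31 (1.24-fold); 29 were higher after quantile normalization and 28 after loess. The quartiles of the differences were -0.01 and 0.50, and the extremes were -0.61 and 0.76. Among the 41 that reached the floor, 30 (73.2%) were higher by any amount, against 57.1% of all 10137 genes reaching the floor, and 11 were lower, against 42.9%. Their median difference was 0.32, against 0.07 for those genes. At 1.5-fold, 6 of the 41 were higher, or 14.6%, against 10.9% of all genes reaching the floor, and 1 was lower, or 2.44%, against 5.16%. The share of higher factors lies near the background and the lower count is 1 gene, so the counts at 1.5-fold set nothing apart. None of the factors (0 of 41) was 2-fold higher or lower, against 3.25% and 0.858% of all genes reaching the floor.

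**Figure D1:**
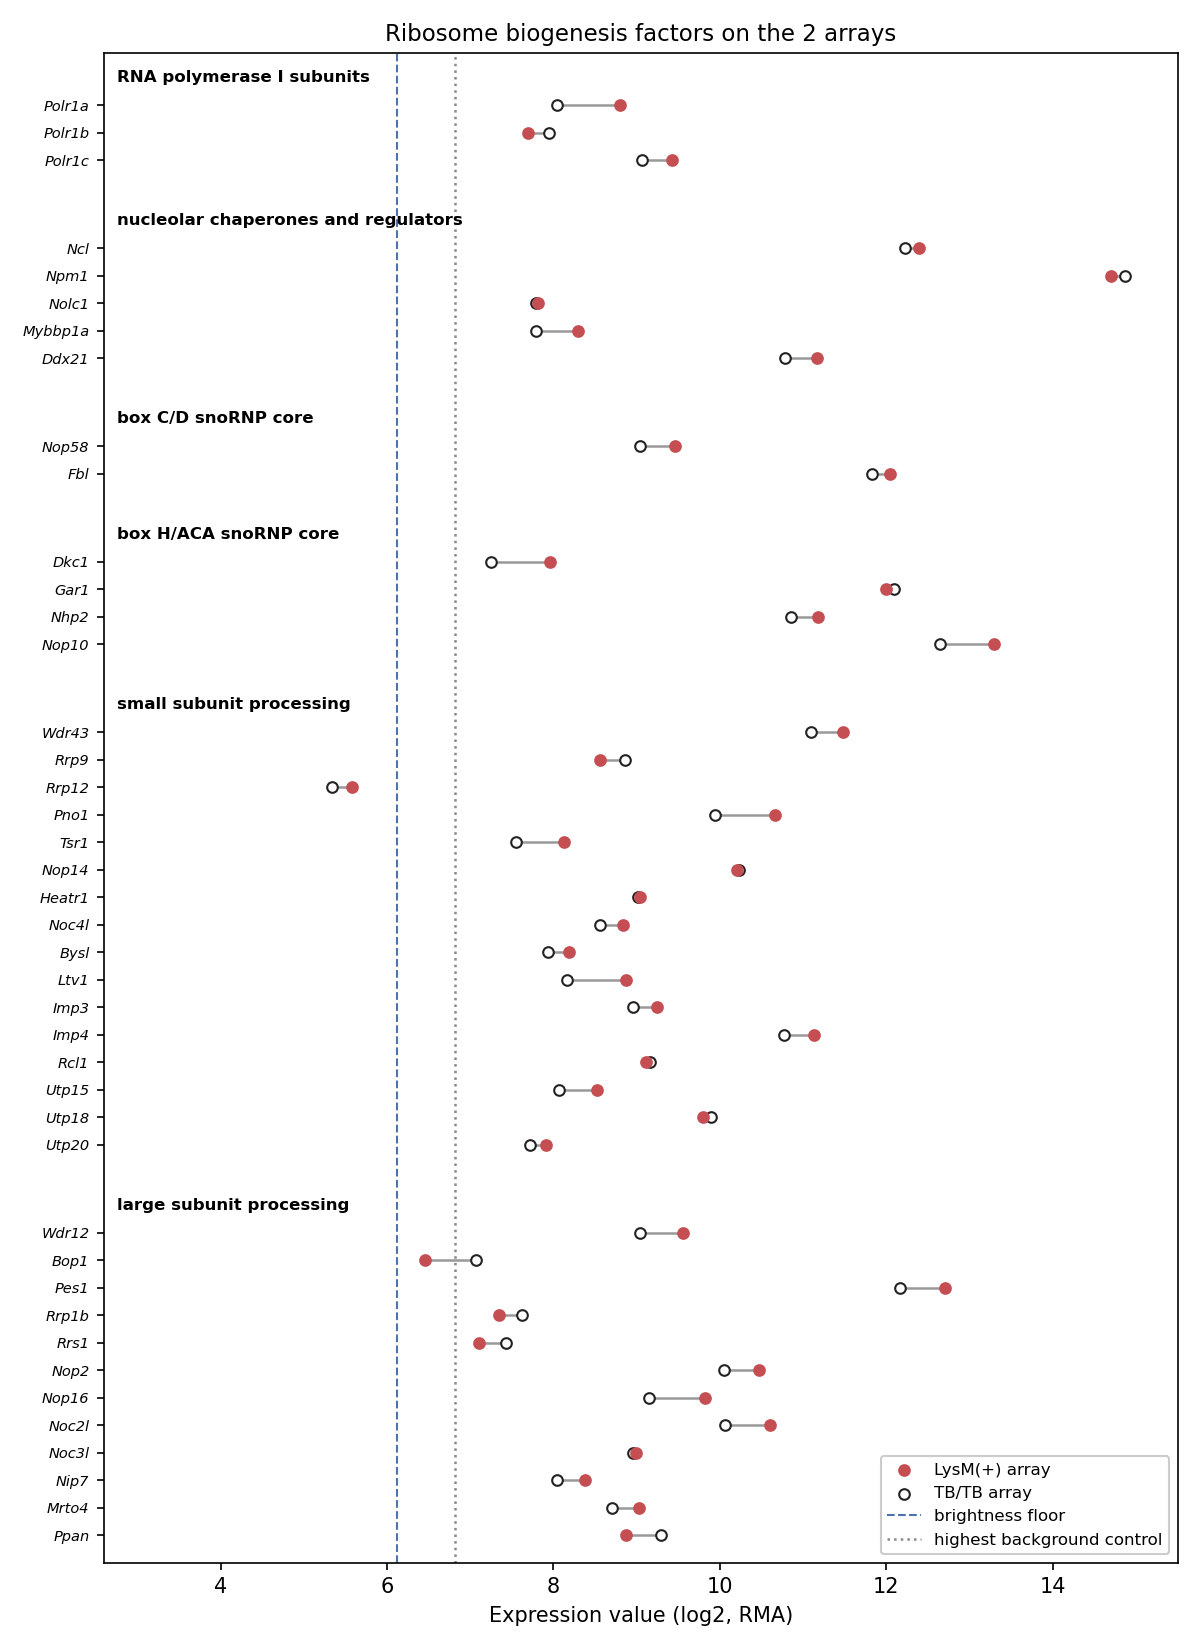
Log2 expression values (x axis) of the 42 measured ribosome biogenesis factors by role, with the LysM(+) array as filled red points and the TB/TB array as open points; the dashed line is the floor of 6.12 and the dotted line the highest background control, 6.81. The red point lies to the right for 31 genes, Rrp12 lies left of both lines, and the pairs with the widest gaps are Polr1a, Pno1, Dkc1 and Ltv1.

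By brightness, the factors stood apart from all genes mainly in the middle of the range. Of the 19 factors with a mean value from 8 to below 10, 15 were higher, against 61.1% of all 2726 genes in that range, and the median difference was 0.33, against 0.10 for those genes. Of the 9 from 10 to below 12, 8 were higher with a median of 0.38, against 62.3% higher and a median of 0.11 for 2090 genes. The 8 factors from the floor to below 8 were split, 4 higher and 4 not, with a median of -0.11, against 51.0% higher and a median of 0.01 for 3124 genes. At 12 and above, 3 of 5 were higher, with a median of 0.17, against 59.4% higher and a median of 0.07 for 1816 genes.

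RNA polymerase I subunits did not move as a unit. Polr1a, the catalytic subunit, had a value of 8.81 in LysM(+) and 8.05 in TB/TB, which is 0.76 apart or 1.69-fold, the widest gap of all 42 factors. Polr1b, which forms the active centre together with Polr1a, was lower at 7.70 in LysM(+) against 7.94 in TB/TB, a difference of -0.25. Polr1c, a subunit that RNA polymerases I and III share, had 9.42 in LysM(+) and 9.06 in TB/TB. Of these subunits of one enzyme, Polr1a and Polr1c were thus higher and Polr1b lower.

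The nucleolar chaperones and regulators had a median difference of 0.17, and none of the 5 measured (0 genes) passed 1.5-fold. Of all genes reaching the floor, 10.9% were that much higher and 5.16% lower, so a count of 0 in 5 sets nothing apart. Mybbp1a, a MYB-binding nucleolar protein that acts on ribosomal RNA transcription and processing, had 8.29 in LysM(+) and 7.79 in TB/TB, a difference of 0.51. Ddx21, an RNA helicase of the nucleolus, had 11.16 in LysM(+) and 10.79 in TB/TB, a difference of 0.38. Nucleolin, encoded by Ncl, had 12.40 in LysM(+) and 12.22 in TB/TB. Nolc1, a chaperone of snoRNPs, had 7.82 in LysM(+) and 7.79 in TB/TB, nearly equal. Nucleophosmin, encoded by Npm1, a chaperone that shuttles between nucleolus and cytoplasm, was lower at 14.70 in LysM(+) against 14.87 in TB/TB.

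Box H/ACA snoRNPs have a core of 4 proteins, and all 4 were measured. Dkc1, dyskerin, the pseudouridine synthase that is also part of telomerase, had 7.96 in LysM(+) and 7.25 in TB/TB, a difference of 0.70 or 1.63-fold. Nop10, its small partner, had 13.30 in LysM(+) against 12.64 in TB/TB, 1.58-fold higher. Nhp2 had 11.17 in LysM(+) against 10.85 in TB/TB, a difference of 0.32. Gar1, which joins the particle last during its assembly, had 11.996 in LysM(+) and 12.097 in TB/TB, so 3 of the 4 were higher and Gar1 was not. Of the box C/D core, Nop58 had 9.46 in LysM(+) and 9.04 in TB/TB, and the methyltransferase fibrillarin, encoded by Fbl, had 12.05 in LysM(+) and 11.83 in TB/TB; both lay under 1.5-fold, with differences of 0.43 and 0.22.

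All 16 factors of small subunit processing were measured, and 12 were higher and 4 lower by any amount, with a median difference of 0.26. The widest were late-acting factors of the pre-small subunit particle. Pno1, which sits beside the site of the last cut in the particle's RNA, had 10.66 in LysM(+) and 9.94 in TB/TB, a difference of 0.72 or 1.64-fold. Ltv1, an assembly and export factor of the same particle, had 8.87 in LysM(+) and 8.17 in TB/TB, 1.63-fold higher. Tsr1, a GTPase-like protein there, stood just under the threshold with 8.12 in LysM(+) against 7.55 in TB/TB, or 1.49-fold. Other late factors were closer to even: Bysl, bystin, had 8.18 in LysM(+) and 7.94 in TB/TB. Rrp12, an export factor, had 5.58 in LysM(+) and 5.34 in TB/TB, both under the floor, so its level was not distinguishable from background.

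Early processome members were mixed. Utp15 and Wdr43, both of the UTP-A group that binds the nascent precursor first, had differences of 0.46 and 0.38, with 8.53 and 11.47 in LysM(+) against 8.07 and 11.10 in TB/TB. Heatr1, of the same group, had 9.04 in LysM(+) and 9.01 in TB/TB. Imp3 and Imp4, which act in one complex with the wider list's Mphosph10, had close differences of 0.29, 0.36 and 0.30; their values were 9.24, 11.14 and 8.69 in LysM(+), and 8.95, 10.78 and 8.40 in TB/TB. Noc4l had 8.83 in LysM(+) and 8.56 in TB/TB, while Nop14, which Noc4l binds, had 10.21 in LysM(+) and 10.24 in TB/TB. Utp20 had 7.91 in LysM(+) and 7.72 in TB/TB. Lower values were found for 3 more besides Nop14. Rrp9, a protein of the U3-type snoRNP, had 8.57 in LysM(+) and 8.86 in TB/TB. Utp18 had 9.80 in LysM(+) and 9.89 in TB/TB. Rcl1, a cyclase-like protein, had 9.11 in LysM(+) and 9.16 in TB/TB.

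Factors of large subunit processing had the widest range of differences of the 6 roles: of 12 measured, 8 were higher and 4 lower, and the differences ran from -0.61 to 0.68. Nop16 had 9.82 in LysM(+) and 9.14 in TB/TB, a difference of 0.68 or 1.60-fold. Noc2l, which pairs with other NOC proteins on the pre-large subunit, had 10.61 in LysM(+) and 10.06 in TB/TB, whereas its partner Noc3l had 8.99 in LysM(+) and 8.96 in TB/TB. The ribosomal RNA methyltransferase gene Nop2 had 10.47 in LysM(+) against 10.05 in TB/TB. Nip7 and Mrto4, a placeholder for a stalk protein, had differences of 0.34 and 0.33, with 8.38 and 9.03 in LysM(+) against 8.04 and 8.70 in TB/TB.

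The PeBoW complex, in which Pes1, Bop1 and Wdr12 act together on the large subunit precursor, held both higher and lower members. Pes1 had 12.71 in LysM(+) against 12.17 in TB/TB, a difference of 0.54, and Wdr12 had 9.56 in LysM(+) against 9.04 in TB/TB, a difference of 0.51. Bop1 had 6.46 in LysM(+) and 7.07 in TB/TB, a difference of -0.61 or 1.53-fold lower, the only factor counted as lower. Its LysM(+) value lay within the range of the background controls, so its fold is not exact, and after quantile normalization of the arrays its difference of -0.57 was under the threshold. Ppan, a factor of the Brix family, was lower at 8.88 in LysM(+) against 9.29 in TB/TB. Rrs1 had 7.11 in LysM(+) and 7.44 in TB/TB, and Rrp1b, which targets a phosphatase to the nucleolus, had 7.35 in LysM(+) and 7.63 in TB/TB.

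**Figure D2:**
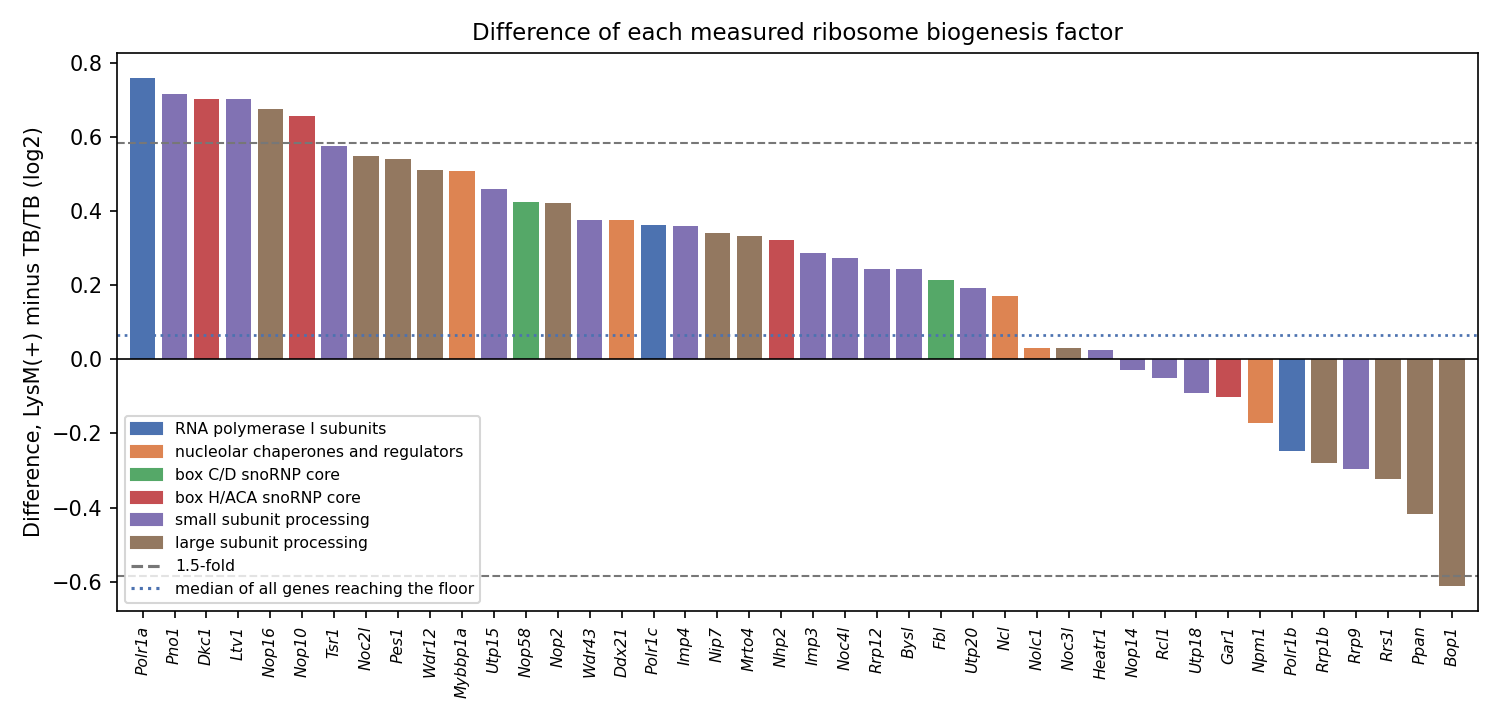
Difference of each measured factor (LysM(+) minus TB/TB, log2, y axis), sorted and coloured by role; dashed lines mark 1.5-fold and the dotted line the median of all genes reaching the floor, 0.07. The 6 bars above the upper line are Polr1a, Pno1, Dkc1, Ltv1, Nop16 and Nop10, Bop1 alone passes the lower line, and every role with 3 or more measured genes has bars on both sides of 0.

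The choice of normalization touched the counted factors at the edge. After a loess fit of the difference on the mean value, Nop16 and Nop10, at 0.58 each, were under the threshold, which left 4 factors counted as higher: Polr1a, Pno1, Dkc1 and Ltv1.

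Among these factors, genes with an E-box in the window had a larger median difference. The 10 with an E-box had a median difference of 0.46 and 9 of them were higher in LysM(+), the exception being Utp18 at -0.09. The other 27 measured factors that reached the floor and had a window had a median of 0.29, and 20 of them were higher. Over all genes that reached the floor and had a window, the medians were 0.09 for 981 with an E-box and 0.07 for 7341 without. Of these 981 and 7341 genes, 60.3% and 57.0% were higher by any amount. At 1.5-fold the order was the other way for all genes, with 9.28% of the 981 higher and 11.1% of the 7341. Among the factors, 2 of the 10 with an E-box and 4 of the 27 without were that much higher. The 2 groups of factors overlapped widely, since those without an E-box ran from -0.42 to 0.76, and Polr1a, at the top, had none. By the CCGGAAG motif the order was the other way, with a median of 0.32 for the 13 factors that had it and 0.37 for the 24 that did not. These motifs were compared with the values in view, so the medians are descriptions only.

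**Figure D3:**
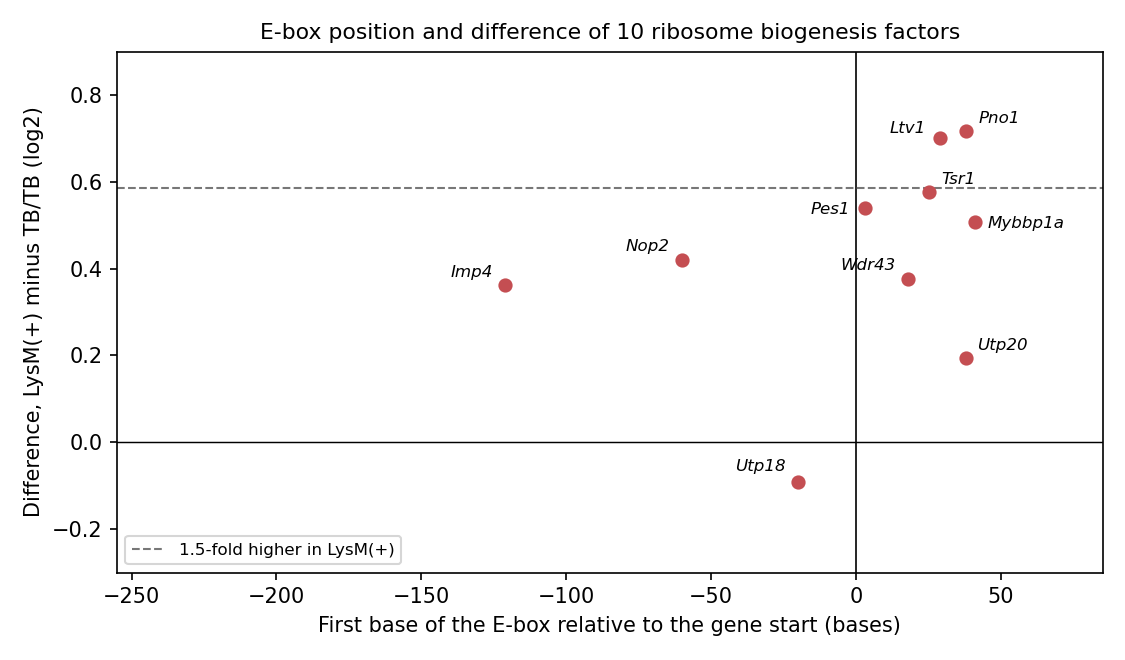
Difference of the 10 factors with an E-box (LysM(+) minus TB/TB, log2, y axis) by the position of the E-box's first base relative to the gene start (x axis, bases); the dashed line marks 1.5-fold. The 7 points right of the start run from 0.19 for Utp20 to 0.72 for Pno1, and the 3 left of it are Imp4, Nop2 and, at -0.09, Utp18.

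The gap between the arrays was wider for Myc than for any of the factors. Myc had 12.18 in LysM(+) and 10.57 in TB/TB, a difference of 1.62 or 3.07-fold. Its partner Max had 11.77 in LysM(+) and 11.59 in TB/TB. The MXD proteins and their kin compete with MYC for MAX, and the 5 above the floor all lay under 1.5-fold. Mxi1 had 9.12 in LysM(+) and 8.74 in TB/TB, and Mxd1 had 9.51 in LysM(+) and 9.49 in TB/TB. Mxd4, Mnt and Mga had 11.13, 8.45 and 12.54 in LysM(+), against 11.22, 8.39 and 12.71 in TB/TB. The related Mlx and Mlxip had differences of 0.21 and -0.38, and Mycn, Mycl and Mxd3 were under the floor on both arrays. The part of Myc in the differences of the factors was not tested.

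Proliferation markers differed far more than the factors in the same direction. Of 28 listed, 26 were measured and all 26 were at least 1.5-fold higher in LysM(+), against 10.9% of all genes reaching the floor. The list's median was 1.97 and its smallest difference 0.90. The median value of the markers was 10.00 in LysM(+) and 7.45 in TB/TB. Ube2c, Plk1, Ccna2 and Ccnb2, genes of mitosis, led them with differences of 4.06, 4.01, 3.73 and 3.52; the TB/TB value of Ccna2 was within the background control range. The dimmer value lay in that range for 7 of the 26, and both values for Cdc20, next to the median, so the median fold is not exact. No ribosome biogenesis factor reached the smallest of these differences, and the largest, that of Polr1a, was 0.76. In a culture, more dividing cells and more RNA per cell cannot be told apart, and the part of cell division in the differences of the factors was not tested.

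Other genes of the same pathway were taken from a list of 144, of which 137 were measured and 130 reached the floor. They showed a shift of similar size: 106 of the 137 were higher by any amount and the median difference was 0.26. Among the 130, 101 (77.7%) were higher by any amount, against 57.1% of all genes reaching the floor. Of the 130, 15 were at least 1.5-fold higher, or 11.5%, near the background of 10.9%. Another 2 were as much lower, or 1.54%, under the 5.16% of all genes reaching the floor. The count of 15 was 9 after quantile normalization and 9 after loess. By role, the medians were 0.17 for 12 genes of RNA polymerase I and its factors, 0.28 for 9 snoRNP partners, 0.28 for 46 small subunit factors, 0.24 for 54 large subunit factors and 0.37 for 16 genes of the exosome and of RNA trimming. Among genes reaching the floor, the medians were 0.26 for 51 large subunit factors and 0.28 for 14 exosome and RNA trimming genes. The other role medians were then the same.

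The widest differences in that list were spread over the pathway's steps. Taf1a, a subunit of the selectivity factor that recruits RNA polymerase I, had 6.20 in LysM(+) and 5.17 in TB/TB; both values were within the background control range, so its fold is not exact. Grwd1 had 6.64 in LysM(+) against 5.74 in TB/TB, also within that range on both arrays. Mdn1, midasin, a giant ATPase that strips assembly factors from the large subunit precursor, had 9.21 in LysM(+) and 8.33 in TB/TB, or 1.84-fold. Utp6, a processome protein of the UTP-B group, had 9.17 in LysM(+) against 8.35 in TB/TB, or 1.77-fold. Trmt112, a cofactor of several methyltransferases including one for ribosomal RNA, had 14.42 in LysM(+) and 13.65 in TB/TB, 1.70-fold higher.

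Pdcd11, the large processome scaffold, had 7.86 in LysM(+) and 7.17 in TB/TB. Exosc9, a subunit of the RNA exosome, had 10.35 in LysM(+) against 9.66 in TB/TB, and the helicase gene Dhx37 had 7.37 in LysM(+) against 6.69 in TB/TB, the TB/TB value within the control range. The genes counted as lower were Nol7, with 10.55 in LysM(+) and 11.24 in TB/TB, or 1.61-fold, and Rrp36, with 9.37 in LysM(+) against 9.97 in TB/TB, or 1.51-fold. Both act in small subunit processing.

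The genes of both lists were put together by complex, with memberships from textbook knowledge and the values in view. Signs were then alike in UTP-A and mixed in UTP-B. All 6 measured UTP-A genes were higher, from 0.03 for Heatr1 to 0.64 for Nol11, except that Heatr1 turned negative after quantile normalization and after loess. In UTP-B, 2 of 6 were higher, and the differences ran from -0.29 for Pwp2 to 0.82 for Utp6, with a median of -0.06. Of all genes reaching the floor, 57.1% were higher by any amount. Some of the differences counted were small, such as 0.03 for Heatr1 and -0.09 for Utp18. One of the 4 lower UTP-B genes, Tbl3, had 6.18 in LysM(+) and 6.35 in TB/TB, both within the background control range. Nol11, Pwp2, Tbl3 and Mphosph10 were named after their values were seen. These are differences within 2 arrays, and no test of UTP-A against UTP-B was possible.

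Structural proteins of the cytosolic ribosome, the end product of the pathway, differed less. Of 56 measured genes of 79 listed, all reached the floor, 37 (66.1%) were higher by any amount, against 57.1% of all genes reaching the floor, and the median difference was 0.08, close to the 0.07 of all genes reaching the floor. Rps21 was the only one past 1.5-fold, with 14.56 in LysM(+) and 13.95 in TB/TB. At 1.5-fold, 1 of the 56 was thus higher, against 10.9% of all genes reaching the floor. None of the 56 (0 genes) was as much lower, against 5.16%. Genes of cytosolic ribosomal proteins have many processed copies in the genome whose sequences can share probes. The median difference of the factors was thus 0.31 and that of the ribosomal proteins 0.08, with no test of the gap. The 2 lists also differed in brightness, with a median TB/TB value of 9.02 for the factors and 15.08 for the ribosomal proteins. At a mean value of 12 and above, the median difference was 0.17 for 5 factors and 0.07 for all genes. The share of all genes at least 1.5-fold higher was also smaller in that range than among all genes reaching the floor.

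**Figure D4:**
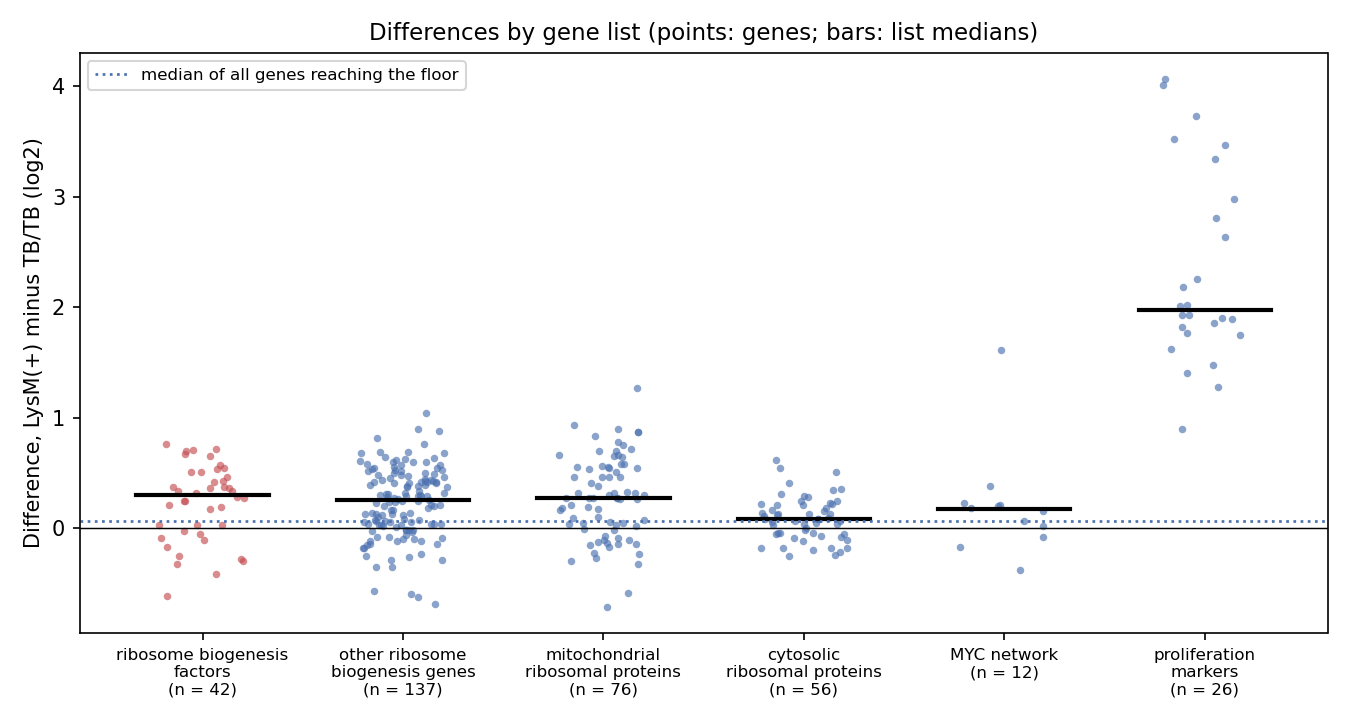
Differences (LysM(+) minus TB/TB, log2, y axis) of each measured gene in 6 lists (x axis), with black bars at the list medians and a dotted line at 0.07, the median of all genes reaching the floor. The medians of ribosome biogenesis factors (red, 0.31), other genes of the pathway (0.26), mitochondrial ribosomal proteins (0.28) and the MYC network (0.17) lie slightly above the line. That of cytosolic ribosomal proteins (0.08) lies on it, and that of proliferation markers (1.97) lies far above it. The list medians include genes under the floor. For the 9 MYC network genes that reached the floor the median was 0.06, against the line's 0.07.

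Markers of the labelled cell type were strong on both arrays. All 9 measured macrophage markers reached the floor, with values from 12.41 to 18.86 in LysM(+) and from 12.98 to 19.04 in TB/TB, and none (0 genes) differed by 1.5-fold. Of 9 measured neutrophil markers 8 reached the floor, and 3 of these, or 37.5% against 10.9% of all genes reaching the floor, were at least 1.5-fold higher in LysM(+): Ltf, Retnlg and Elane. The TB/TB values of Retnlg and Elane, 6.29 and 6.46, were within the background control range. Ngp, S100a9 and S100a8 were bright on both arrays and under 1.5-fold apart, with 16.32, 13.35 and 13.21 in LysM(+). Their TB/TB values were 15.92, 12.85 and 12.92. Csf3r and Mpo were lower by any amount, with differences of -0.57 and -0.30, and the median difference of the 9 was 0.40. Of 8 progenitor markers 2 reached the floor, Meis1 and Myb, with differences of 0.42 and 0.27. Both values of Myb, 6.62 in LysM(+) and 6.35 in TB/TB, were within the background control range. Kit, Cd34, Gata2, Flt3, Mecom and Hlf were under the floor on both arrays. No measured marker of B and plasma cells (0 of 6) or of erythroid cells (0 of 3) reached the floor. For T and NK cells 1 of 9 did (Cd4). For dendritic cells 1 of 6 did, Siglech, which was within the background control range on both arrays. Of the markers of fibroblasts and stromal cells 5 of 7 did. Among these, Pdgfrb was within that range on both arrays and Cxcl12 in TB/TB, and Col1a2 was 1.52-fold lower in LysM(+). The part of these cells in the differences of the factors was not tested. Mc4r itself was under the floor, at 4.45 in LysM(+) and 4.57 in TB/TB, and gave no check of the genotype labels. Lyz2, the locus of the LysM driver, had 18.86 in LysM(+) and 19.04 in TB/TB, a difference of -0.18 on which no check was based.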

How the data were processed

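RNA of 2 cultures was measured on whole-transcript arrays, 1 per group. The authors deposited 1 log2 value per probe set and array, computed by RMA (background correction, normalization across arrays and 1 summary per probe set) with Affymetrix Expression Console according to the submitters' processing notes. Neither tool versions nor the arrays that entered the normalization are stated there. Base 2 was inferred from RMA, and every fold depends on that reading. The annotation gave a single gene symbol to 19572 of the 28846 probe sets and several symbols to 0. They were matched by Entrez ID to RefSeq genes of GRCm38.p6, which gave 19505 genes, 55 of them with several probe sets, which were averaged. Each measured factor had 1 probe set. Signal over background is known from the control probe sets alone, and 2 arrays limit the precision.

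With 1 array per group, groups were compared by difference, fold and count, with no test. The members and lists were chosen with earlier results of these data known; roles were assigned from textbook knowledge. All measured factors could be named, with the 8 counted genes of largest difference in each direction from the wider list, 3 from each ribosomal protein list, the 4 largest proliferation markers, the MYC network and the cell type markers; Mphosph10, Nol11, Pwp2 and Tbl3 were added after their values were seen. Computation used Python 3.11.15, pandas 2.3.3 and numpy 2.4.6, and the counting was checked on simulated data. Alternatives were centring, quantile normalization, loess (span 0.4), other floors, a 2-fold threshold, the brightest probe set, leaving out genes that share values, and means.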

Additional observations from a re-analysis of the deposited data

How the results depend on the processing

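With 1 array per group, the limit is that no array-to-array noise is known. The factors' median difference of 0.31 ran from 0.23 (mean in place of median) to 0.31 (centring) over 6 alternatives, and no median changed sign among the 5 lists recomputed (the factors, the wider list, both ribosomal protein lists and the proliferation markers). Other list medians were not recomputed. The mean of the proliferation markers was 2.33. At a 2-fold threshold, 0 factors were higher and 0 lower, and 1 gene of the wider list was higher and 0 lower. That gene was Taf1a, within the background control range on both arrays. After quantile normalization 0 factors were counted as lower. The wider list's count of 15 higher was 9 after quantile normalization, 9 after loess and 13 with the floor at the highest background control. Of all genes, the share higher was 9.73% after quantile normalization, 9.24% after loess, 6.98% with no floor, 10.0% with both values reaching the floor and 3.25% at 2-fold, and the share lower was 5.90% after loess, 3.85% with both values reaching the floor, 0.858% at 2-fold and 4.27% with the floor at the highest background control, an alternative chosen after seeing the data. Single factors kept their sign, except Heatr1 and Noc3l after quantile normalization and Heatr1, Noc3l and Nolc1 after loess, so 29 and 28 of 42 were higher by any amount; the shares of all genes reaching the floor were then 52.6% and 51.0%. No paired analysis was possible because each group had 1 array.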

Other observations

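Some ribosome biogenesis genes carry snoRNA genes within their own span, so that one transcript can yield both a processing factor and guide RNAs. Only containment in the span was checked here, not strand or introns, so a shared transcript was not shown for any gene below. In the RefSeq table of GRCm38.p6, 8 of the 46 listed genes held at least 1 snoRNA gene: Ncl, Nop58, Dkc1, Wdr43, Tsr1 and Ppan among those measured, and Nop56 and Gnl3 among those not analysed here. Nop58 held 4, Wdr43 held 3, Ncl and Ppan held 2 each, and Dkc1 and Tsr1 held 1 each. These 6 measured genes had a median difference of 0.40, with 5 of 6 higher in LysM(+) and Ppan lower at -0.42. The other 36 factors had a median of 0.28, and 26 of them were higher. The ranges overlapped, and the snoRNAs themselves were not analysed here.

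Mitochondrial ribosomal proteins, which are made in the cytosol for a separate ribosome, had a median difference of 0.28 over 76 measured genes, with 57 higher by any amount. Of the 71 that reached the floor, 52 (73.2%) were higher by any amount, against 57.1% of all genes reaching the floor. The share was also 73.2% for the ribosome biogenesis factors that reached the floor. Of the 71, 13 were at least 1.5-fold higher in LysM(+), or 18.3%, against 10.9% of all genes reaching the floor. Another 2 were as much lower, against 5.16% of all genes reaching the floor. Mrpl18 had 9.55 in LysM(+) and 8.28 in TB/TB, or 2.41-fold. Mrps14 had 9.67 in LysM(+) against 8.73 in TB/TB, and Mrps10 had 8.70 in LysM(+) against 7.83 in TB/TB. Mrpl33 was lower, with 11.25 in LysM(+) and 11.96 in TB/TB, and so was Mrpl1, with 8.46 in LysM(+) against 9.05 in TB/TB.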
